A study of Mus musculus with 9 samples.

Results

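In the whole brains of young and old mice, 10 genes of the dopamine, serotonin and noradrenaline systems were followed. They were chosen by name, as enzymes, transporters and receptors of these transmitters: Th, Ddc, Slc6a3, Slc18a2, Tph2, Slc6a4, Dbh, Drd1, Drd2 and Maob. All 10 were among the 49315 gene IDs counted, and all 10 were among the 18492 that passed the filter on low counts. The mice were male wild-type C57BL/6J fed without limit, no group carried a transgene or received an agent, and the question was what aging does to the brain. The labels give an age of 3 months for the 5 young mice, where the study's methods give 3 or 4, and of 33 months for the 4 old mice, which carry the replicate numbers 1, 3, 4 and 5. The mice were bought or bred in house, and the sources used here do not say which mouse came from where. Each library is polyA-selected RNA of 1 mouse's whole brain, sequenced to between 14229259 and 21150439 counted reads. Because a whole brain is 1 bulk sample, fewer cells of a type and less RNA per cell cannot be told apart.

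Dopamine, serotonin and noradrenaline are made by small groups of neurons in the midbrain and brainstem whose fibers reach nearly the whole forebrain. Dopamine comes mainly from the substantia nigra and the ventral tegmental area, and from local neurons of the olfactory bulb and hypothalamus. Serotonin comes from the raphe nuclei and noradrenaline from the locus coeruleus and nearby groups, while the dopamine receptors sit mostly on neurons of the striatum. The transmitters are made by a short chain of enzymes, loaded into vesicles by 1 shared transporter, taken back up by a transporter particular to each neuron type and broken down by monoamine oxidases.

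None of the 10 genes passed the test for a difference between old and young mice (edgeR quasi-likelihood test, adjusted p under 0.05 over all 18492 genes tested). By the same rule 11% of all genes tested were called, 6.2% higher and 4.83% lower in old mice. At an unadjusted p under 0.05, 2 of the 10 genes passed, Slc6a3 and Dbh, both lower in old mice, where 26% of all genes did. The DESeq2 Wald test called these 2 genes at an adjusted p under 0.05, so their calls depend on the tool. The log2 fold change (old minus young) was negative for 7 of the 10 genes and positive for 3, with a median of -0.17, where 50% of all genes tested were negative and their median was -9.2e-05. With an absolute log2 fold change over 0.58 as a further condition none of the 10 and 2.68% of all genes tested were called. Neither the counts nor the median is a test of the 10 genes as a group.

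The genes differed in how precisely they were measured. For the log2 fold change, the standard error was 0.0655 for Drd2, 0.0872 for Drd1 and 0.0814 for Maob, near the median of 0.0838 over all genes tested. It was 0.468 for Slc6a4, 0.449 for Tph2 and 0.350 for Dbh, the genes of the small brainstem groups. All values below are CPM, that is read counts scaled to a fixed library total after TMM scaling, unless another scale is named, and mice are named by age and replicate number.

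**Figure D1:**
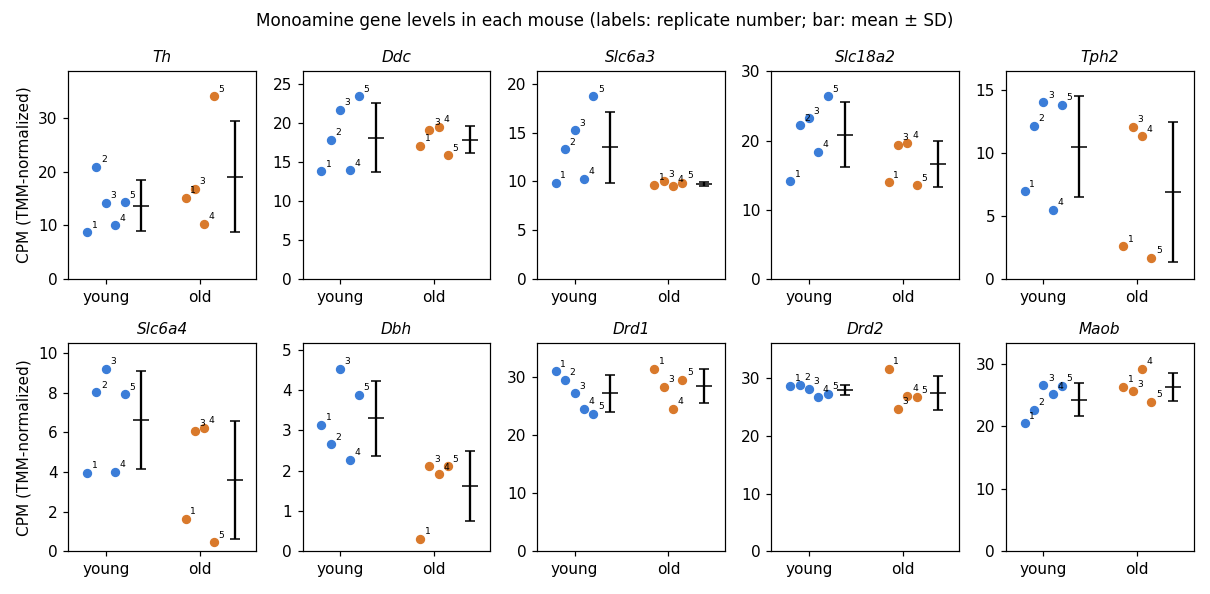
Level of each of the 10 genes in CPM (vertical axes, from 0) in the 5 young (blue) and 4 old (orange) mice, numbered by replicate, with the mean ± SD of each age in black. Dbh is the gene whose old and young mice do not overlap, the old Slc6a3 values lie between 9.52 and 10.01, and Tph2 and Slc6a4 are lowest in old 1 and old 5.

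Th encodes tyrosine hydroxylase, the rate-limiting enzyme for dopamine and noradrenaline (GRCm38, 7:142892752-142931128, minus strand). It measured 8.73, 20.97, 14.2, 10.05 and 14.3 CPM in young 1 to 5, and 15.2, 16.9, 10.3 and 34.0 CPM in old 1, 3, 4 and 5. Old 5 was the highest of all mice, and the other 3 old mice lay within the young range. The means were 13.7 ± 4.78 CPM (SD, n = 5) in young and 19.1 ± 10.3 CPM (SD, n = 4) in old mice, a log2 fold change of 0.49 (SE 0.299; edgeR adjusted p = 0.333; 95% interval -0.15 to 1.13). Without old 5 the log2 fold change of Th was 0.05. Old 5 also had the highest sum of 7 markers of the olfactory bulb, a region whose periglomerular neurons also make Th.

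These markers, Doc2g, Cdhr1, Eomes, Tbx21, Sp8, Shisa3 and Nmb, summed to 20.4, 81.0, 23.0, 21.2 and 24.2 CPM in young 1 to 5 and to 47.2, 65.4, 17.6 and 181 CPM in old 1, 3, 4 and 5. The 4 mice with the highest sums, old 5, young 2, old 3 and old 1, were also the 4 with the highest Th, in the same order. None of the 7 markers was called, against 11% of all genes tested, and 4 (57.1%) passed an unadjusted p under 0.05, against 26%. Log2 fold changes of the 7 markers ran from 0.31 to 1.97 with a median of 1.51. Among them Tbx21 was at 0 in young 1. With the mean log2 CPM of these markers as a covariate, which weighs each marker alike, the log2 fold change of Th was -0.14 (edgeR adjusted p = 0.584). All 7 markers had positive log2 fold changes themselves, so this fit cannot tell olfactory bulb tissue from age. The part of that tissue in the Th values was not tested.

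Ddc encodes the aromatic amino acid decarboxylase shared by the dopamine, noradrenaline and serotonin paths (11:11814101-11898144, minus strand). It measured 13.8, 17.8, 21.7, 13.96 and 23.4 CPM in young 1 to 5, and 17.1, 19.1, 19.5 and 15.8 CPM in old 1, 3, 4 and 5. All 4 old mice lay inside the young range. The log2 fold change was -0.01 (SE 0.143; edgeR adjusted p = 0.9747), and its 95% interval of -0.32 to 0.30 leaves room for a fold between 0.802 and 1.23.

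Tph2 encodes the brain form of tryptophan hydroxylase, the first and rate-limiting enzyme for serotonin in raphe neurons (10:115078641-115185022, minus strand). It measured 6.95, 12.2, 14.02, 5.51 and 13.8 CPM in young 1 to 5, and 2.60, 12.1, 11.3 and 1.70 CPM in old 1, 3, 4 and 5. The old mice fell on both sides of the lowest young mouse, with old 1 and old 5 under it and old 3 and old 4 well inside the young range. All 4 old mice were below the young median. The highest old mouse was 7.08 times the lowest, against 2.55 times among the young mice. The means of 10.5 ± 3.995 CPM (SD, n = 5) and 6.92 ± 5.53 CPM (SD, n = 4) gave a log2 fold change of -0.61 (SE 0.449; edgeR adjusted p = 0.432; 95% interval -1.57 to 0.36).

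Dbh encodes dopamine beta-hydroxylase, which turns dopamine into noradrenaline inside the vesicles (2:27165233-27183200, plus strand). It measured 3.14, 2.66, 4.54, 2.27 and 3.89 CPM in young 1 to 5, and 0.319, 2.12, 1.92 and 2.11 CPM in old 1, 3, 4 and 5. Every old mouse was below every young mouse, which 6.08% of all genes tested showed in this direction and 6.5% in the other. It was the only one of the 10 genes without overlap. The gap between the lowest young mouse and the highest old mouse was small, 2.27 against 2.12 CPM, and old 1 stood far below the others with 6 reads, where the other 8 mice had between 30 and 66. The means were 3.30 ± 0.919 CPM (SD, n = 5) and 1.62 ± 0.870 CPM (SD, n = 4), with the lowest log2 fold change of the 10 genes, -1.04 (SE 0.350; edgeR adjusted p = 0.0740; 95% interval -1.79 to -0.28). Without old 1 it was -0.67 (edgeR adjusted p = 0.0925).

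Slc6a3 encodes the dopamine transporter, which takes dopamine back into the neuron and is a defining gene of midbrain dopamine neurons (13:73536747-73578672, plus strand). It measured 9.88, 13.3, 15.3, 10.3 and 18.7 CPM in young 1 to 5, and 9.67, 10.01, 9.52 and 9.86 CPM in old 1, 3, 4 and 5. Of the 4 old mice, 3 were below the lowest young mouse, and old 3 lay just above it. The old values spread by 2.22% of their mean (coefficient of variation) and the young values by 27.2%, and the young mice 1 and 4 were at the old level. The means were 13.5 ± 3.67 CPM (SD, n = 5) and 9.77 ± 0.216 CPM (SD, n = 4), a log2 fold change of -0.45 (SE 0.159; edgeR adjusted p = 0.0836; 95% interval -0.80 to -0.11). In edgeR it was called when young 1 was left out (adjusted p = 0.0394) and when young 4 was left out (adjusted p = 0.0354), the 2 young mice with the lowest values. Leaving out any of the other 7 mice gave an adjusted p of 0.122 to 0.167, and without young 5, the highest mouse, the log2 fold change was -0.30.

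Slc6a4 encodes the serotonin transporter, the reuptake carrier of raphe neurons (11:76998603-77032340, plus strand). It measured 3.97, 8.02, 9.21, 4.01 and 7.91 CPM in young 1 to 5, and 1.65, 6.06, 6.24 and 0.470 CPM in old 1, 3, 4 and 5. As for Tph2, old 1 and old 5 were below all young mice, old 3 and old 4 were inside the young range, and all 4 old mice were below the young median. Old 5 had 8 reads of Slc6a4 and old 1 had 31, against 76 to 145 reads in the young mice. The means of 6.62 ± 2.46 CPM (SD, n = 5) and 3.60 ± 2.98 CPM (SD, n = 4) gave a log2 fold change of -0.88 (SE 0.468; edgeR adjusted p = 0.256; 95% interval -1.88 to 0.12).

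Slc18a2 encodes the vesicular monoamine transporter that all 3 kinds of neuron share (19:59260896-59296012, plus strand). It measured 14.1, 22.2, 23.2, 18.4 and 26.4 CPM in young 1 to 5, and 13.97, 19.4, 19.7 and 13.6 CPM in old 1, 3, 4 and 5. Old 1 and old 5 were just below the lowest young mouse, and the other 2 old mice were inside the young range. The log2 fold change was -0.32 (SE 0.162; edgeR adjusted p = 0.233; 95% interval -0.67 to 0.03). Exons of Slc18a2 overlap those of Gm29261 on the opposite strand, and whether the counting used strand is not given in the sources used here, so reads of the 2 genes may be mixed.

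Drd1 encodes the dopamine receptor of the direct-pathway striatal neurons (13:54051183-54055705, minus strand). It measured 31.0, 29.6, 27.2, 24.5 and 23.7 CPM in young 1 to 5, and 31.5, 28.4, 24.6 and 29.5 CPM in old 1, 3, 4 and 5. The ages overlapped, with old 1 above all young mice and young 4 and young 5 below all old mice, and the log2 fold change was 0.07 (SE 0.0872; edgeR adjusted p = 0.687; 95% interval -0.12 to 0.25).

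Drd2 encodes the receptor of the indirect-pathway striatal neurons, which dopamine neurons also carry as an autoreceptor (9:49340627-49408177, plus strand). It measured 28.7, 28.9, 28.2, 26.9 and 27.4 CPM in young 1 to 5, and 31.7, 24.8, 27.0 and 26.7 CPM in old 1, 3, 4 and 5. The young mice were close together, and the old mice lay on both sides of them, with old 1 above and old 3 and old 5 below. The log2 fold change was -0.02 (SE 0.0655; edgeR adjusted p = 0.881), and its 95% interval of -0.16 to 0.12, a fold of 0.894 to 1.09, was the narrowest of the 10 genes.

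The striatal background of both receptors was measured with 17 genes of striatal projection neurons, such as Ppp1r1b, Adora2a and Penk. Their sum ran from 1861 to 2066 CPM in young and from 1828 to 2094 CPM in old mice. Of the 17, 3 genes (17.6%) fell with age, among them Gnal and Rasgrp2, and none rose by the same test. Of all genes tested, 4.83% were called lower in old mice and 6.2% higher. The ratio of Drd1 to Drd2 reads ran from 0.867 to 1.08 in young and from 0.913 to 1.15 in old mice, which overlap (two-sided exact permutation test, p = 0.310, adjusted p = 0.619 over 4 ratios chosen after the values were seen).

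Maob encodes monoamine oxidase B, a mitochondrial enzyme that breaks down monoamines and is found mainly in astrocytes and in serotonin neurons (X:16709282-16817366, minus strand). It measured 20.5, 22.6, 26.5, 25.2 and 26.5 CPM in young 1 to 5, and 26.3, 25.6, 29.2 and 23.9 CPM in old 1, 3, 4 and 5. Old 4 was the highest of all mice and the other old mice were within the young range. The log2 fold change was 0.12 (SE 0.0814; edgeR adjusted p = 0.392; 95% interval -0.06 to 0.29). The 8 astrocyte markers summed to between 3414 and 3730 CPM in young and between 3505 and 3613 CPM in old mice.

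**Figure D2:**
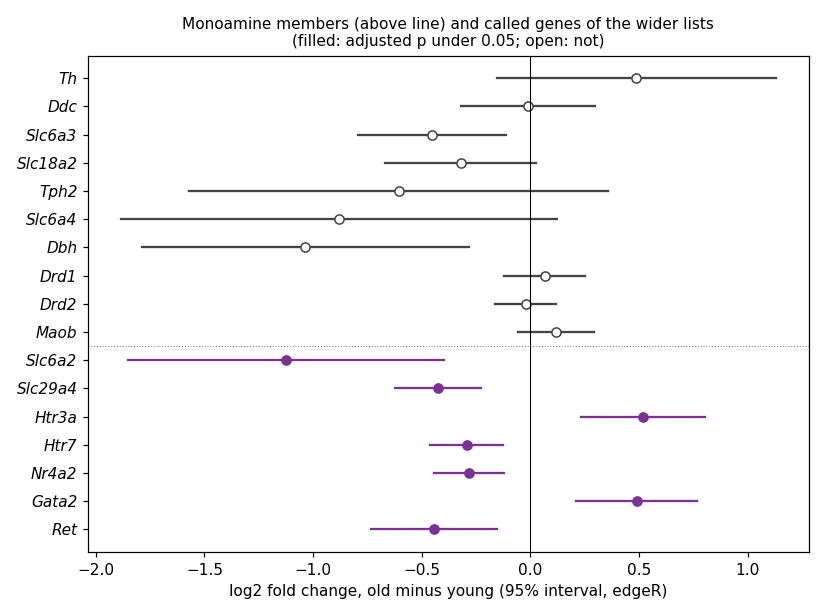
Log2 fold change of old minus young mice (horizontal axis) with its 95% interval from the edgeR fit, for the 10 genes above the dotted line and for the 7 called genes of the wider monoamine lists below it, with filled points for an adjusted p under 0.05. All 10 upper points are open, the intervals of Slc6a3 and Dbh lie below 0, and those of Tph2 and Slc6a4 are the widest.

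The serotonin genes Tph2 and Slc6a4 moved together from mouse to mouse within each age. The log2 CPM values minus the mean of the age correlated with r = 0.97 and rho = 0.90 over 9 mice (two-sided exact permutation tests, p = 0.000149 and p = 0.00203; adjusted over 4 pairs, p = 0.000595 and p = 0.00811). Here and for the other pairs, exact means that all orders of the 9 deviations were taken, across both ages. Deviations from 2 age means are not freely exchangeable, so these p-values are approximate, and orders within each age alone were not tested. Without old 1 and old 5, the mice farthest from the median of Tph2, r was 0.99 with the age means kept, and 0.97 with the age means taken again over the 7 other mice. Old 3, old 4, young 2, young 3 and young 5 were above their age mean for both genes, and the other 4 mice were below it for both. The ratio of Slc6a4 to Tph2 reads ran from 0.571 to 0.728 in young mice and was 0.633, 0.503, 0.551 and 0.276 in old 1, 3, 4 and 5 (two-sided exact permutation test, p = 0.0397, adjusted p = 0.159 over the 4 ratios).

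The promoters of these co-varying serotonin genes follow here as the 250 bases before the start site that RefSeq gives on GRCm38.p6, printed 5′ to 3′ along the strand of the gene. Capitals mark TATAAA, the core of the TATA box, or TGACG, a half-site of the cAMP response element, on either strand.
Tph2, chr10:115185023-115185272, minus strand: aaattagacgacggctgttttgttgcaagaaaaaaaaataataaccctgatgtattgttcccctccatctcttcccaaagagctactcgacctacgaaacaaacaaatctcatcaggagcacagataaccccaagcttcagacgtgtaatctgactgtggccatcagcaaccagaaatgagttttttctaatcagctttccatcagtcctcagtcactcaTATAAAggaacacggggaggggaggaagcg
Slc6a4, chr11:76998347-76998596, plus strand: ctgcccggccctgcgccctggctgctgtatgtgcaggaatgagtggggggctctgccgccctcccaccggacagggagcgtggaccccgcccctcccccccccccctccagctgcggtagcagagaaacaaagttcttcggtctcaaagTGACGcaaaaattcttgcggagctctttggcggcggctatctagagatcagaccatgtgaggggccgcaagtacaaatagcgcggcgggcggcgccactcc
The Tph2 window holds 1 TATAAA and no TGACG, and the Slc6a4 window holds 1 TGACG and no TATAAA. Of 32851 promoter windows of the same length, 12.4% hold TATAAA and 17.8% hold TGACG, at any place and on either strand. These shares do not take account of where in a window the letters lie. The marked letters are not shared by the 2 windows.

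The other 3 pairs examined did not pass the same test over all mice. Th and Slc6a3, both genes of dopamine neurons, gave r = 0.42 and rho = 0.68 (two-sided exact permutation, adjusted p = 0.293 and 0.101), and r was 0.74 without old 5 and young 2. Drd1 and Drd2 gave r = 0.54 and rho = 0.62 (two-sided exact permutation, adjusted p = 0.265 and 0.114), and r was 0.63 without old 4 and young 5. On the deposited TPM values r of Drd1 and Drd2 was 0.91 (exact permutation, adjusted p = 0.00152), a call that depends on the scale. TPM holds a factor common to all genes of a library. Snap25, for example, was at 1968 CPM and 988 TPM in young 3 but at 2116 CPM and 681 TPM in young 4. As Drd1 and Drd2 share that factor, r on TPM cannot tell whether the 2 genes moved together. Slc6a3 and Tph2, which mark neurons of different transmitters, gave r = 0.40 and rho = 0.42 (two-sided exact permutation, adjusted p = 0.293 and 0.270), and r was 0.36 without young 1 and young 5. Without old 1 and old 5 together, r of this pair was much higher and passed, as given in the last section. A close correlation in those mice was therefore not particular to the serotonin genes.

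**Figure D3:**
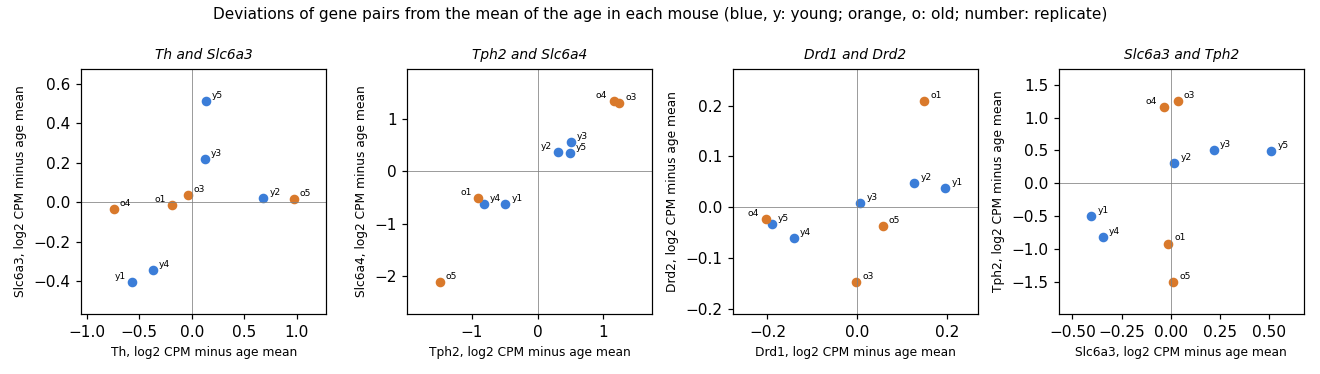
Deviation of log2 CPM from the mean of the age in each of 9 mice, for 4 pairs of genes, with 1 gene on each axis and mice labeled y (young, blue) or o (old, orange) with their replicate number. Tph2 and Slc6a4 fall along 1 line (r = 0.97), while the old mice hardly vary in Slc6a3 in the first and last panels.

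Other pairs are given as a description, without a test, over the same 9 mice, which share their libraries and dissections. Ddc correlated with Slc6a3 (r = 0.93), Slc18a2 (r = 0.88), Tph2 (r = 0.68) and Slc6a4 (r = 0.62), and with Th at r = 0.15. Slc18a2 correlated with Tph2 (r = 0.81), Slc6a4 (r = 0.77), Slc6a3 (r = 0.75) and Maob (r = 0.74), and Ddc with Maob at r = 0.68. Dbh correlated with Tph2 at r = 0.46 and with Slc6a4 at r = 0.25. The most negative pairs were Dbh with Drd2 (r = -0.81) and Drd1 with Maob (r = -0.80). Th varied with none of the 9 other genes above r = 0.42.

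Among 16692 genes with a mean log2 CPM of at least 0, the genes whose deviations were most like those of each of the 10 were also listed, as a description over 9 mice. For Tph2 these were Lrrc74b (r = 0.98), Slc6a4 (r = 0.97) and Fitm2 (r = 0.96), and for Slc6a4 they were Tph2, Spag16 and Copa (each r = 0.97). Dbh was most like Gltp (r = 0.99), Slc18a3 (r = 0.98) and Aspn (r = 0.97), and Th most like Sox4 (r = 0.98), Ttc39c (r = 0.97) and Sall1 (r = 0.97). Slc6a3 was nearest to Chdh (r = 0.99), Optn (r = 0.97) and Gm4793 (r = 0.97), Ddc to Gm44220 (r = 0.999), Baiap3 (r = 0.96) and Xxylt1 (r = 0.96), and Slc18a2 to Ankrd34b (r = 0.98), Gm12977 (r = 0.95) and Vwa5b1 (r = 0.95). Drd1 was most like Zdhhc8, Gldc and Dnajc5 (each r = 0.96), Drd2 most like Znhit2, Pfkm and Rexo1 (each r = 0.97), and Maob most like Sez6l2 (r = 0.96), Cep192 (r = 0.95) and Cldn11 (r = 0.95). With 9 mice and this many genes compared, such high values arise for every one of the 10 genes.

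Tph2, Slc6a4 and Dbh were read beside 10 markers of the brainstem, 9 Hox genes of the hindbrain and the glycine transporter gene Slc6a5. Slc6a5 made up most of their sum, with means of 62.8 of 84.3 CPM in young and 35.0 of 45.8 CPM in old mice. Whether these markers follow the tissue of the raphe nuclei and the locus coeruleus was not tested. The markers summed to 65.2, 67.8, 112, 75.1 and 101 CPM in young 1 to 5 and to 9.67, 41.1, 78.6 and 53.6 CPM in old 1, 3, 4 and 5. None of the 10 was called, against 11% of all genes tested, and 2 (20%) passed an unadjusted p under 0.05, against 26%. All 10 log2 fold changes were negative, where 50% of all genes tested were, and their median was -0.82. Old 1 was the lowest, with Hoxa2, Hoxa3, Hoxb3, Hoxb5, Hoxb6 and Hoxd3 at 0, and Hoxb6 was also at 0 in old 3. Old 1 also had the lowest Dbh and the second lowest Tph2 and Slc6a4, and young 3 and young 5 had the highest sums together with the highest Dbh. Old 5, the lowest mouse for Tph2 and Slc6a4, had a higher brainstem sum than old 1 and old 3.

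**Figure D4:**
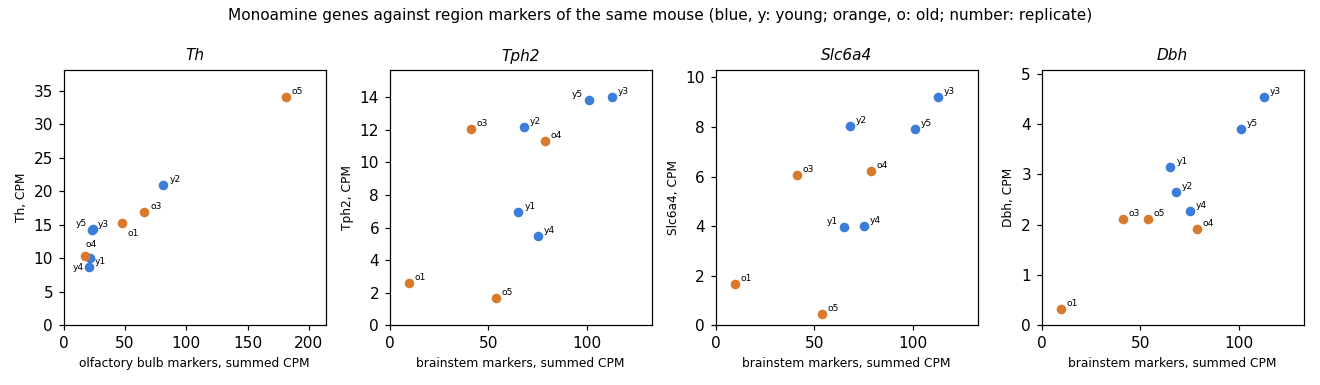
Level of Th against the summed CPM of 7 olfactory bulb markers, and of Tph2, Slc6a4 and Dbh against the summed CPM of 10 brainstem markers, 1 point per mouse labeled y (young, blue) or o (old, orange) with its replicate number. Old 5 is highest on both axes for Th (34.0 and 181 CPM), and old 1 is lowest on both axes for Dbh (0.319 and 9.67 CPM).

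A covariate of the mean log2 CPM of the brainstem markers, chosen after seeing the data, weighs each marker alike, unlike their sum. With this covariate the log2 fold changes of Dbh, Slc6a4, Tph2, Slc6a3 and Slc18a2 were nearer to 0. Those of Th, Maob, Drd2 and Ddc were farther from 0. Dbh went from -1.04 to -0.41, Slc6a4 from -0.88 to -0.43, Tph2 from -0.61 to -0.12 and Slc6a3 from -0.45 to -0.38. Th went from 0.49 to 0.64, Maob from 0.12 to 0.17, Drd2 from -0.02 to -0.11, Ddc from -0.01 to 0.09 and Drd1 from 0.07 to -0.05, and none of the 10 genes was called in this edgeR fit. With old 1 and old 5 left out together, also chosen after seeing the data, Tph2 was at 0.18, Slc6a4 at -0.08, Dbh at -0.69, Slc6a3 at -0.45 and Th at -0.02. Slc6a3 kept its direction and most of its size in both settings. Without old 1 and old 5 the log2 fold changes of Tph2 and Slc6a4 were near 0 or of the other sign. These 2 mice were the lowest for Tph2 and Slc6a4, so leaving them out had to move both genes toward or past 0. The old Slc6a3 values lay between 9.52 and 10.01 CPM, so leaving out old mice could hardly move Slc6a3. This setting therefore cannot tell which of these genes is the firmer. Th depended on old 5, at 0.05 without old 5 and at 0.59 without old 1. All 10 brainstem markers had negative log2 fold changes themselves, so the fit with their mean cannot tell brainstem tissue from age. The part that the amount of brainstem tissue had in these values was not tested.

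Other genes of the monoamine systems were taken from 7 lists of 65 genes, of which 57 passed the filter on low counts. Of these 57, 7 were called, 12.3%, close to the 11% of all genes tested, with 2 higher and 5 lower in old mice and a median log2 fold change of -0.16. The number was also 7 with DESeq2 size factors, with upper quartile scaling and with the striatal covariate, and 7 of 50 with a filter of 1 CPM in 4 samples. It was 6 with library size only and 9 of 65 with no filter. In the settings that follow it was lower. It was 5 with the DESeq2 Wald test, which did not call Slc6a2 and Ret, and it was 4 without young 2, 3 without young 3, young 5, old 3 or old 5 (each left out alone), 2 without old 1, 1 with the brainstem covariate and 0 without old 1 and old 5 together.

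Among 10 tested genes of uptake and breakdown, Slc6a2 and Slc29a4 fell and none rose (20% called, against 11% of all genes tested). Slc6a2, the noradrenaline transporter and the partner of Dbh in noradrenaline neurons, measured 4.08, 3.71, 6.46, 3.19 and 5.004 CPM in young 1 to 5 and 0.478, 2.12, 3.06 and 2.52 CPM in old 1, 3, 4 and 5. As for Dbh, every old mouse was below every young mouse, as in 6.08% of all genes tested, and old 1 was the lowest. The log2 fold change was -1.12 (SE 0.339; edgeR adjusted p = 0.0478), which without old 1 was -0.77 (adjusted p = 0.0548) and with the brainstem covariate -0.45 (adjusted p = 0.248). The DESeq2 Wald test did not call Slc6a2 (adjusted p = 0.0980). The ratio of Dbh to Slc6a2 reads ran from 0.702 to 0.778 in young and from 0.625 to 1 in old mice (two-sided exact permutation test, p = 0.690).

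Slc29a4, a low-affinity monoamine transporter of the plasma membrane, ran from 25.2 to 33.5 CPM in young and from 18.5 to 24.4 CPM in old mice. The groups did not overlap, as for 6.08% of all genes tested in this direction, and the log2 fold change was -0.42 (SE 0.0923; edgeR adjusted p = 0.00993). Slc29a4 was called in every alternative but 2. These were the brainstem covariate (edgeR adjusted p = 0.0724) and leaving out old 1 and old 5 together (edgeR adjusted p = 0.0813). The other monoamine oxidase, Maoa, had a log2 fold change of -0.11 (edgeR adjusted p = 0.384) and is named for its role beside Maob. Slc22a2 was not tested.

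Of the 13 serotonin receptor genes tested, Htr3a rose and Htr7 fell (15.4% called, against 11% of all genes tested). Htr3a, a subunit of the ion channel receptor, ran from 3.32 to 4.63 CPM in young and from 4.49 to 6.32 CPM in old mice (log2 fold change 0.52, SE 0.133, edgeR adjusted p = 0.0222), with old 4 inside the young range. Htr7, a receptor coupled to cAMP, ran from 11.7 to 14.7 CPM in young and from 10.01 to 11.3 CPM in old mice without overlap (log2 fold change -0.29, SE 0.0786, edgeR adjusted p = 0.0281). All old mice lay below all young mice in 6.08% of all genes tested. None of the 9 adrenoceptor genes was called by edgeR, with 3 at an unadjusted p under 0.05 (33.3%, against 26% of all genes tested). Adrb3 (-0.48) and Adra2b (-0.44) had the largest log2 fold changes. Of the other dopamine receptors Drd3 (0.61) and Drd5 (0.07) were tested and not called, and Drd4 was not tested.

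Transcription factors that specify or maintain these neurons were called in 2 of 10 cases (20%, against 11% of all genes tested). Nr4a2, which keeps midbrain dopamine neurons in their identity and is also used in other neurons, ran from 50.4 to 63.7 CPM in young and from 41.1 to 51.3 CPM in old mice (log2 fold change -0.28, SE 0.0755, edgeR adjusted p = 0.0277). Gata2, a factor of serotonin neurons and of many other cells, ran from 5.75 to 8.87 CPM in young and from 8.75 to 11.7 CPM in old mice (log2 fold change 0.49, SE 0.129, edgeR adjusted p = 0.0264). Nr4a2 was the 1 gene of the 57 that was still called with the brainstem covariate (log2 fold change -0.36, adjusted p = 0.0325). In that fit the log2 fold changes of Slc29a4 (-0.37), Gata2 (0.53), Htr7 (-0.27) and Htr3a (0.41) stayed near their values while their calls were lost, and that of Ret was -0.20. Nr4a2 itself was not called without young 2, young 3, old 4 or old 5, each left out alone (edgeR adjusted p of 0.0603 to 0.0756). It was also not called with the striatal covariate (edgeR adjusted p = 0.0513) or on the 2 TPM scales (limma adjusted p = 0.156 and 0.151). Fev, the factor most particular to serotonin neurons, had a log2 fold change of -0.62 (SE 0.415, edgeR adjusted p = 0.379). Pitx3, Foxa2 and Phox2a were not tested.

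Beside Slc6a3, 6 markers of dopamine neurons all had negative log2 fold changes, where 50% of all genes tested did, with a median of -0.32. Of the enzymes of these neurons, Th was at 0.49 and Ddc at -0.01. Of the 6 markers, 1 was called (16.7%, against 11% of all genes tested). This was Ret, a receptor for neurotrophic factors, which ran from 25.3 to 40.6 CPM in young and from 19.1 to 30.0 CPM in old mice (log2 fold change -0.44, SE 0.135, edgeR adjusted p = 0.0492; DESeq2 Wald test adjusted p = 0.0730). With the brainstem covariate Ret was at -0.20 (edgeR adjusted p = 0.354). The sum of the 6 markers overlapped between the ages, from 71.2 to 122 CPM in young and from 72.0 to 88.0 CPM in old mice. As for Slc6a3, young 1 and young 4 had lower sums than the other young mice. None of the 7 tested genes of cofactor and other synthesis was called by edgeR, and none had an unadjusted p under 0.05, where 26% of all genes tested did. The largest log2 fold change among those with a mean log2 CPM of at least 0 was that of Pcbd1 (-0.27), followed by Gch1 (-0.25), and Tph1 and Pnmt were not tested.

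Levels of different genes were compared on the deposited TPM scale, which divides by gene length. In young mice the order of the median TPM was Drd2 (29.1), Drd1 (21.5), Maob (20.8), Slc18a2 (14.9), Th (13.6), Tph2 (10.8), Ddc (10.2), Slc6a3 (9.84), Slc6a4 (3.91) and Dbh (3.17). In old mice it was Drd2 (24.7), Maob (22.2), Drd1 (18.4), Th (15.4), Slc18a2 (9.88), Ddc (9.23), Slc6a3 (6.57), Tph2 (5.44), Slc6a4 (1.83) and Dbh (1.61). Of the 18 neighboring pairs in the 2 orders, 17 had overlapping ranges over mice, and the exception was Ddc over Slc6a3 in old mice. Within the young mice Drd2 was above Drd1 in 5 of 5, and Drd1 above Maob in 2 of 5. On CPM divided by exon length, Maob stood above Drd1 and Th above Slc18a2 at both ages, so these 2 changes of place depended on the scale. There Drd2 over Maob and Slc6a3 over Slc6a4 did not overlap in young mice, while all neighboring pairs overlapped in old mice. The receptors and Maob stood at the top and Slc6a4 and Dbh at the bottom at both ages. On this scale the median log2(TPM + 1) of all genes tested differed by -0.14 between old and young mice, so differences between the ages are given from the counts, with TPM fits only as alternatives.

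The description as whole brain was read beside 12 marker lists. The most uneven were those given above, olfactory bulb markers from 17.6 to 181 CPM and brainstem markers from 9.67 (old 1) to 112 CPM over all mice. Whether every sample held the same parts of the brain was not tested. Neuron markers summed to between 5184 and 5743 CPM over all mice, choroid plexus markers to between 440 and 748 CPM, meninges markers to between 140 and 237 CPM and hypothalamus markers to between 27.2 and 62.4 CPM. Ependyma markers were lower in every old mouse (19.3 to 24.7 CPM) than in every young mouse (25.0 to 34.5 CPM), as were pituitary markers (1.70 to 2.46 against 2.80 to 4.86 CPM), of which 6 of 7 did not pass the filter on low counts. Cerebellum markers ran from 359 to 522 CPM in young and from 245 to 452 CPM in old mice. All 5 log2 fold changes were negative (median -0.33), where 50% of all genes tested were. None of the 5 was called, and 1 (20%) was at an unadjusted p under 0.05, against 26% of all genes tested. Pineal markers summed to at most 1.47 CPM. Of the 81 marker genes tested, 8 were called, 9.88% against 11% of all genes tested. Of these 8, 1 was higher (Avp) and 7 lower (among them Gnal, Rasgrp2, S1pr1, Ccdc153, Tubb3 and Map2) in old mice.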

How the data were processed

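RNA of whole brains from 5 young and 4 old mice was analyzed. The authors trimmed the reads, aligned them with STAR to GRCm38 and counted unique exon reads per gene with featureCounts, which gives the deposited raw counts, and also deposited TPM values (counts divided by gene length and scaled to a fixed total), whose gene lengths are not given in the sources used here. Deposited counts normalized by size factors were not used. A single column of each of these files, named as that of an old mouse, matched no sample in the labels and was not used (1 per file). The study gives 5 mice per age, so the old group here is smaller than in the study. Sequence and start sites are from RefSeq, where 9 of the 10 genes had an entry (Maob had none), and gene positions from GENCODE.

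Of 49315 gene IDs, 49056 had a symbol and 259 had none. Genes were kept by filterByExpr (minimum count 10, minimum total 15), scaled by TMM and tested with edgeR 4.0.16 (quasi-likelihood F test, R 4.3.3), with Benjamini-Hochberg adjustment over 18492 genes and age as the only term. Log2 CPM used a prior count of 2. Genes were called at an adjusted p under 0.05. Alternatives were the DESeq2 1.42.0 Wald test, limma 3.58.1 on log2(TPM + 1) and log2(TPM + 0.1) (robust and with trend, where robust was set after a first fit), other scalings and filters, a replicate block, marker covariates and leaving out each mouse. Total counts per library were 14229259 to 21150439, the biological coefficient of variation was 6.71%, and replicates of 1 age differed by more than sampling noise (chi-square divided by its degrees of freedom, 4.04 or more). In simulated counts for 18492 genes, 200 genes were given a true log2 difference of 1, of which 87.5% were called and 4.37% of the calls were unchanged genes.

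Exact permutation tests over 5 against 4 mice cannot give a p below 0.00794. The methods call the mice biological replicates. The 10 genes, the 7 monoamine lists and the 12 marker lists were chosen with earlier results of these data known. Named were the 10 genes, the called genes of each list and, in a list without any, the pair with the largest absolute log2 fold change at a mean log2 CPM of at least 0. Maoa, Fev and Drd3 were added after their values were seen, and some genes of the lists are not reported here by name.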

Additional observations from a re-analysis of the deposited data

Results flagged for a closer look

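A mouse was listed here when the gap between the highest or lowest mouse and the nearest other mouse of the same age took up more of the range of that age than Dixon's 95% critical value for that number of mice. Of 88 combinations of a value and an age, 6 passed, where chance gives about 4.4. Among the 10 genes 1 passed, Dbh in old 1, at 0.319 CPM where the other old mice lay between 1.92 and 2.12 CPM. The other 5 concern markers. Gnal was at 250 CPM in young 1, where the other young mice lay between 225 and 231 CPM. The striatal projection neuron genes summed to 2094 CPM in old 1, where the other old mice lay between 1828 and 1845 CPM. The olfactory bulb markers summed to 81.0 CPM in young 2, where the other young mice lay between 20.4 and 24.2 CPM. The pineal markers summed to 1.44 CPM in young 3, where the other young mice lay between 1.26 and 1.31 CPM. The astrocyte markers summed to 3613 CPM in old 3, where the other old mice lay between 3505 and 3512 CPM. Th in old 5 (34.0 CPM) and Tph2 and Slc6a4 in old 1 and old 5 did not pass, the last because 2 low mice of 4 close the gap to each other.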

How the results depend on the processing

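None of the 10 genes changed sign while called in any alternative. Where none was called in the reported fit, the number called was 2 with the DESeq2 Wald test and 2 with no filter (Slc6a3 and Dbh both times), 1 on log2(TPM + 1) and 1 on log2(TPM + 0.1) (Dbh), 1 with the striatal genes as a covariate (Dbh, log2 fold change -1.42, adjusted p = 0.0127), and 0 to 1 when each mouse was left out in turn (Slc6a3). Over all 22 settings the adjusted p ran from 0.0124 to 0.304 for Slc6a3 and from 2.3e-05 to 0.465 for Dbh. The genes Th, Tph2, Drd1, Drd2, Ddc and Maob had the other sign, uncalled, in at least 1 setting. Of the 57 wider monoamine genes, 7 were called, 4 with the olfactory bulb covariate, 1 with the brainstem covariate, 0 without old 1 and old 5 together, and 2 to 6 when each mouse was left out in turn. Of the marker genes tested in each setting, 8 of 81 were called in the reported fit, 18 of 90 with no filter, 14 with the striatal covariate, 4 without old 1 and old 5 together, and 7 to 15 when each mouse was left out in turn (15 without young 2, 14 without old 4). The correlation of Drd1 and Drd2 was 0.91 on log2(TPM + 1), a scale on which all genes of a library share a factor. That of Slc6a3 and Tph2 was 0.90 without old 1 and old 5 together, with age means of the other mice (adjusted p = 0.0115 by exact permutation). The brainstem covariate and leaving out old 1 and old 5 together were added after seeing the data. With fewer genes called over all genes (923 without both mice, 1166 with the brainstem covariate, 518 and 507 on the TPM scales, 2039 as reported), the cause of a lost call was not tested. Replicate numbers did not pair the mice, with correlations of same-numbered deviations of 0.17, -0.12, 0.088 and -0.024. With a replicate block 1 of the 10 genes was called (Th, log2 fold change 0.62, adjusted p = 0.048), and 15 marker genes. The lowest mice had 6 reads of Dbh, 8 of Slc6a4 and 29 of Tph2, and these genes had the widest 95% intervals of the 10. How much of that width comes from read number and how much from the spread between mice was not tested.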
